A study of Glycine max with 5 samples.

Results

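The genes H4 and LOC548079, whose synonym is PCNA, were put forward as cell division genes of the soybean root tip and are described here over all their probe sets. They were found by gene symbol among the probe sets that the platform's annotation lists for a single gene. H4 (Entrez gene 547916) had 2 such probe sets and LOC548079 (Entrez gene 548079) had 4, so that 6 of the 37593 probe sets of the array and 2 of its 6031 listed genes are described. All 6 passed the filter on dim signals and were tested. The tissue was from soybean (Glycine max) seedlings of the genotype Bragg, 10 days old and grown at 28 °C in potting mix without fertilizer. The root meristem group was 3 arrays of root tips cut at 0.5 mm. The non-meristematic group was 2 arrays, called leaf in one label field, while the treatment protocol says that the remaining parts of the plant were frozen. The purpose stated for the contrast was to find genes enriched in the root meristem. Each sample also carries a description of embryo stages, which was not used.

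PCNA is the ring-shaped clamp that slides along DNA and holds DNA polymerase delta on its template, and its transcript is widely used as a sign of cells that replicate DNA. Histone H4 is 1 of the core histones that package new DNA, and plant histone genes are transcribed mainly while DNA is replicated. In soybean, however, the name H4 has also been given to a stress-induced gene related to SAM22, which encodes a pathogenesis-related protein of class PR-10. The tables used here give H4 no product name and no synonym, and sequences of the probes or proteins were not used here.

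The files went against reading H4 as a histone gene. Its probe sets carry the design number GmaAffx.89772, the part of a probe set name that stands for a group of expressed sequences assembled at the design of the array. The same number is carried by probe sets of PR-10 (synonym SAM22) and of DD4/62, a name that the RefSeq table gives as a synonym of PR-10 and the platform's annotation as a gene of its own, and of vegetative storage proteins, and by none listed for another gene with a histone, cyclin or replication symbol. In the gene order of the RefSeq assembly Glycine_max_v4.0, the gene that follows H4 on chromosome 17 is LOC100791036, whose 4 probe sets carry the same design number. The gene after that, LOC100527097, has 1 probe set, which carries the design number of PR-10 probe sets (Gma.6999). H4 is therefore named below by its symbol alone.

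The labelled tissues differed in their markers. Of 21 probe sets of 10 leaf and photosynthesis genes, 18 were tested, 16 were lower in root meristem and none was called higher. Over all probe sets tested, 18.1% were called lower. The probe set of RCAALPHA and those of RCA14 other than its brightest were above background in non-meristematic tissue alone. The direction of these was fixed by the filter on dim signals and is no result. The summed signal of the brightest probe set of each gene was 5220 to 5461 on the root meristem arrays, against 48479 and 34166 on non-meristematic arrays 1 and 2. Most of the root meristem sum was the brightest probe set of PSAD, a photosystem I gene. It read 4662, 4687 and 4996 in root meristem, against 2833 and 3178 in non-meristematic tissue, the opposite way to the others (log2 0.67, adjusted p = 0.00759, limma, under the minimum size), while 2 other PSAD probe sets were lower. Over the 9 other genes the sum was 464 to 586 in root meristem, against 45645 and 30988 in non-meristematic tissue. The auxin efflux gene PIN2A, a marker of root tips, lay at 1740 to 2401 in root meristem, against 26.1 and 25.2, at or under the array background, in non-meristematic tissue. The contrast sets root tip against tissue with leaf transcripts, so that organ and cell division cannot be told apart in it. In whole-tissue RNA, fewer cells that carry a transcript and less of it per cell cannot be told apart either.

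The brighter H4 probe set, GmaAffx.89772.14.A1_s_at, was strongly higher in root meristem. Its MAS5 signal, the value that the Affymetrix software condenses from the probe pairs of a probe set, was 2711, 2331 and 1272 on root meristem arrays 1, 2 and 3, against 180 and 342 on non-meristematic arrays 1 and 2. The groups did not overlap, and the lowest root meristem value was 3.72 times the highest non-meristematic one. The group means were 2105 ± 745 (SD, n = 3) in root meristem and 261 ± 115 (SD, n = 2) in non-meristematic tissue. The log2 difference was 3.01 ± 0.40 (SE, 95% interval 2.05 to 3.98), an 8.08-fold difference with an adjusted p of 0.00196 (limma). Within each array, this probe set ranked at the 97.2, 96.5 and 92.8 percentile of all probe sets in root meristem, and at the 62.8 and 76.7 percentile in non-meristematic tissue, a comparison that no scaling between arrays can move. It passed under each of 13 alternative settings. A further setting left out probe sets with the name endings _x_at or _s_at, and so both H4 probe sets.

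The second H4 probe set, GmaAffx.89772.1.A1_s_at, was dim. It read 44.4, 35.7 and 17.5 on root meristem arrays 1, 2 and 3, against 0.8 and 2.6 on non-meristematic arrays 1 and 2. Background, set at the 25th percentile of each array, was 22.5, 20.7 and 17.9 in root meristem, against 37 and 26.3 in non-meristematic tissue, so that 2 of 3 root meristem arrays and 0 of 2 non-meristematic arrays were above it. The difference passed (log2 4.39 ± 0.97, adjusted p = 0.0126, limma). However, the probe set entered the test through root meristem alone, so its direction was fixed by the filter. The size of the difference is not given as a fold, because the non-meristematic background is as high as the root meristem signals. On a scale of log2(signal + 16) the difference was 1.41.

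**Figure D1:**
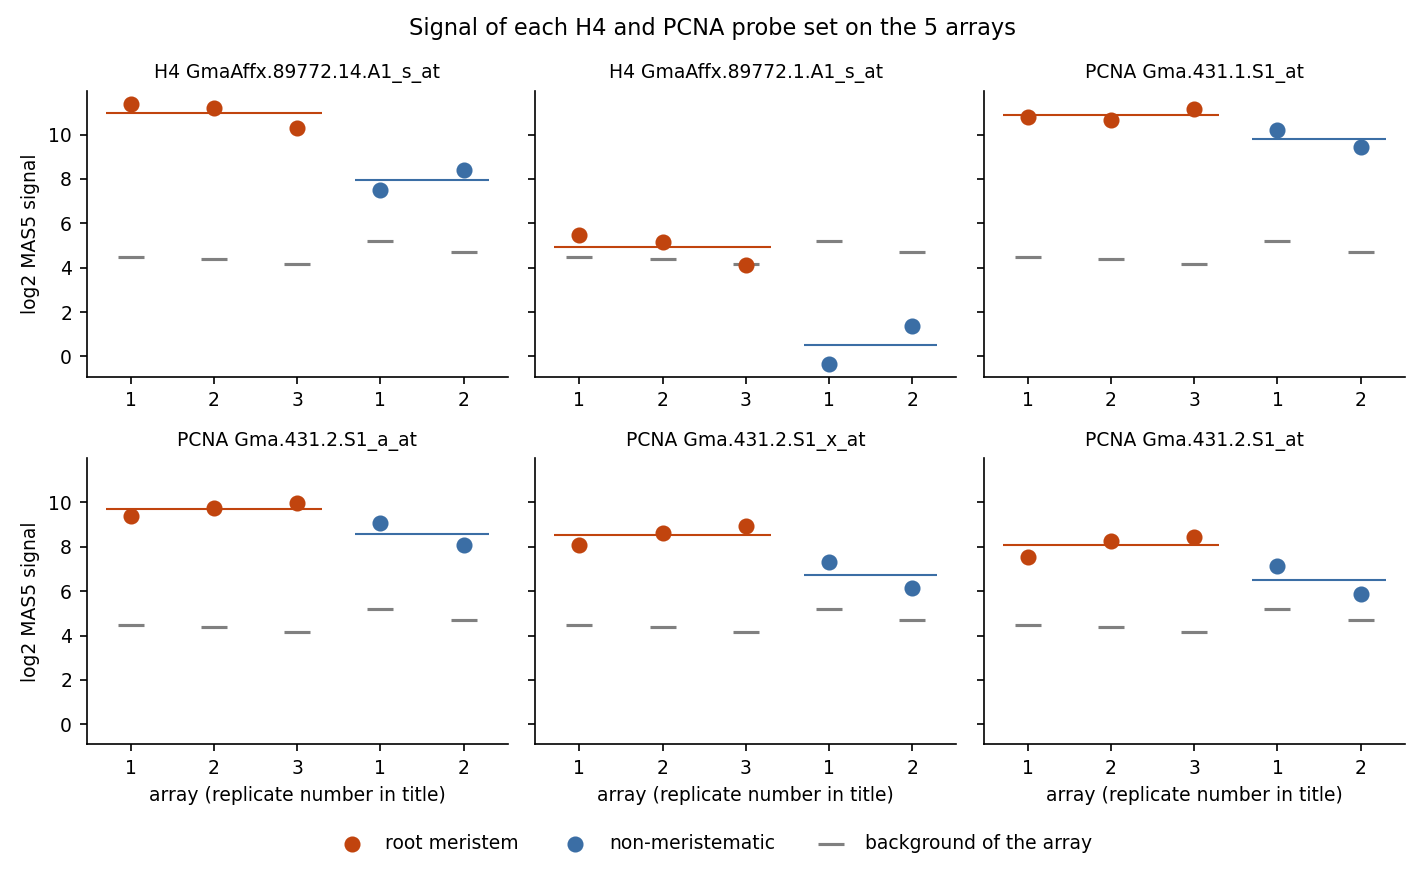
MAS5 signal on a log2 scale (vertical axis) of the 2 H4 and 4 PCNA probe sets on root meristem arrays 1 to 3 and non-meristematic arrays 1 and 2 (horizontal axis); points are single arrays, coloured lines the group means and grey bars the background of each array. In each panel all root meristem points lie above both non-meristematic points, and the GmaAffx.89772.1.A1_s_at panel is the only one with points at or below background.

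All 6 probe sets of the 2 genes were called higher, which needed both an adjusted p below 0.05 and a minimum log2 difference of 1. For the dim H4 probe set the direction was fixed by the filter and is no result. Of the 30941 probe sets tested, 14.4% were called higher and 18.1% lower, 32.5% in all. The groups did not overlap, with root meristem higher, at 34% of them, and with root meristem lower at 29.6%. At an adjusted p below 0.05 alone, 20.5% were higher. A lack of overlap is thus common in this contrast. The brighter H4 probe set exceeded 97.5% of all probe sets tested in log2 difference, against 83.9% to 93.9% for the PCNA probe sets. The dim H4 probe set is not ranked, since it was below background on both non-meristematic arrays and passed the filter through root meristem alone. Both H4 probe sets have the ending _s_at, which marks probes shared by several transcripts, and the letter A, which marks the orientation given to the sequence at design. Among the 5444 tested probe sets with that letter 17.1% were called higher, against 13.8% of the 25497 with the letter S. A further 3 probe sets are listed for H4 together with LOC100808416 and cannot be assigned to either gene. Of these, 2 were too dim to be tested, and the third had a log2 difference of -1.23 ± 0.54 (adjusted p = 0.117, limma).

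**Figure D2:**
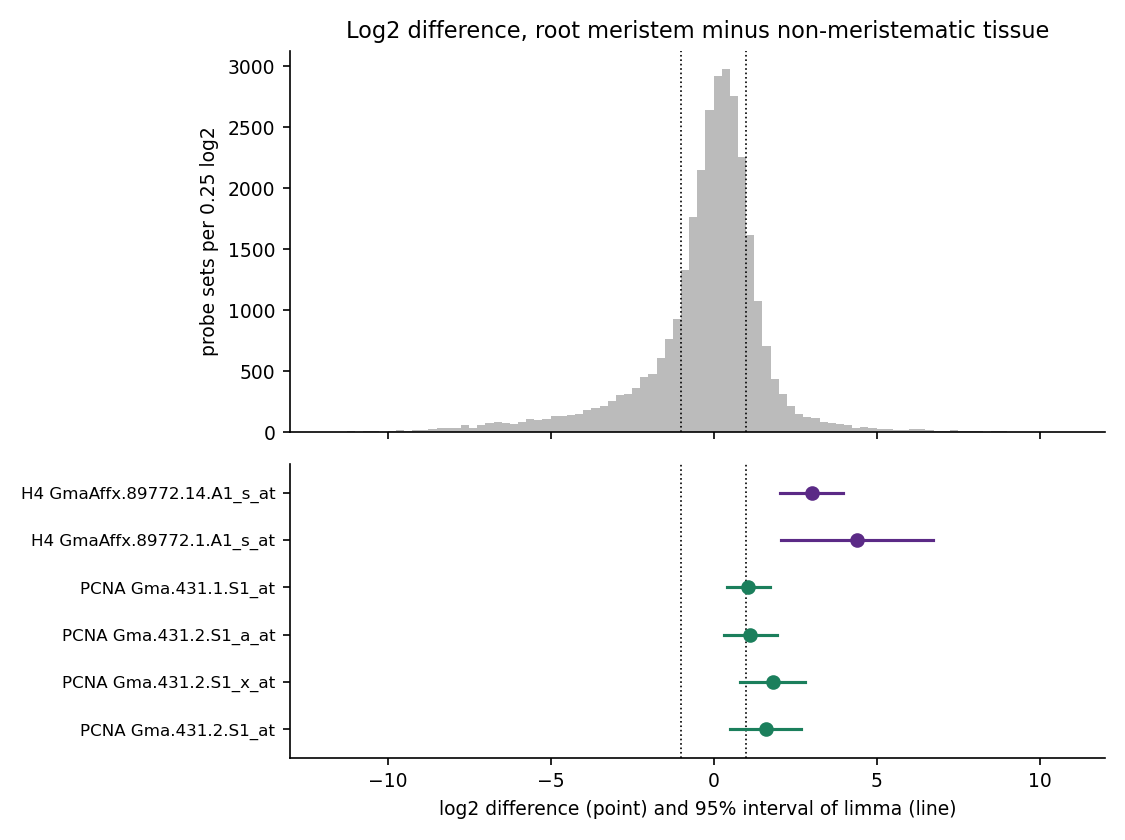
The upper panel counts all 30941 tested probe sets by their log2 difference between root meristem and non-meristematic tissue; the lower panel gives the difference (point) and 95% interval (line) of each H4 and PCNA probe set, with dotted lines at a log2 difference of -1 and 1. The brighter H4 probe set lies at 3.01 and the PCNA probe sets at 1.06 to 1.81; the point of the dim H4 probe set, at 4.39, rests on non-meristematic values below background and has no reliable place.

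Probe sets that share the design number of H4 fell into groups of opposite direction. Of the 24 probe sets numbered GmaAffx.89772, 18 are listed for 1 gene, and together these stand for 7 genes. Among the 19 tested, 7 were higher in root meristem, 9 were lower and 3 did not pass. The higher ones were listed for H4, PR-10, DD4/62, LOC100791036 and, in 1 case, PR-10 together with LOC100101844. Except for the brighter H4 probe set, these were above background in root meristem alone. The lower ones were 5 of VSPA, a vegetative storage protein gene, 2 of LOC547820 (synonym VSPB), 1 of LOC100806382 and 1 with no listed gene. The VSPA probe set GmaAffx.89772.17.S1_s_at, for example, read 42.6, 73.8 and 71.2 in root meristem, against 9094 and 12202 in non-meristematic tissue (log2 -7.44, adjusted p = 3.34e-05, limma). The lower probe sets of LOC547820 and LOC100806382, and GmaAffx.89772.7.A1_at and GmaAffx.89772.7.A1_s_at of VSPA, were above background in non-meristematic tissue alone. Where a probe set was above background in only 1 group, its side was fixed by the filter and is no result. The brighter H4 probe set and the other VSPA probe sets were above background in both groups and moved in opposite directions. A design number therefore does not say which way a probe set moved.

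**Figure D3:**
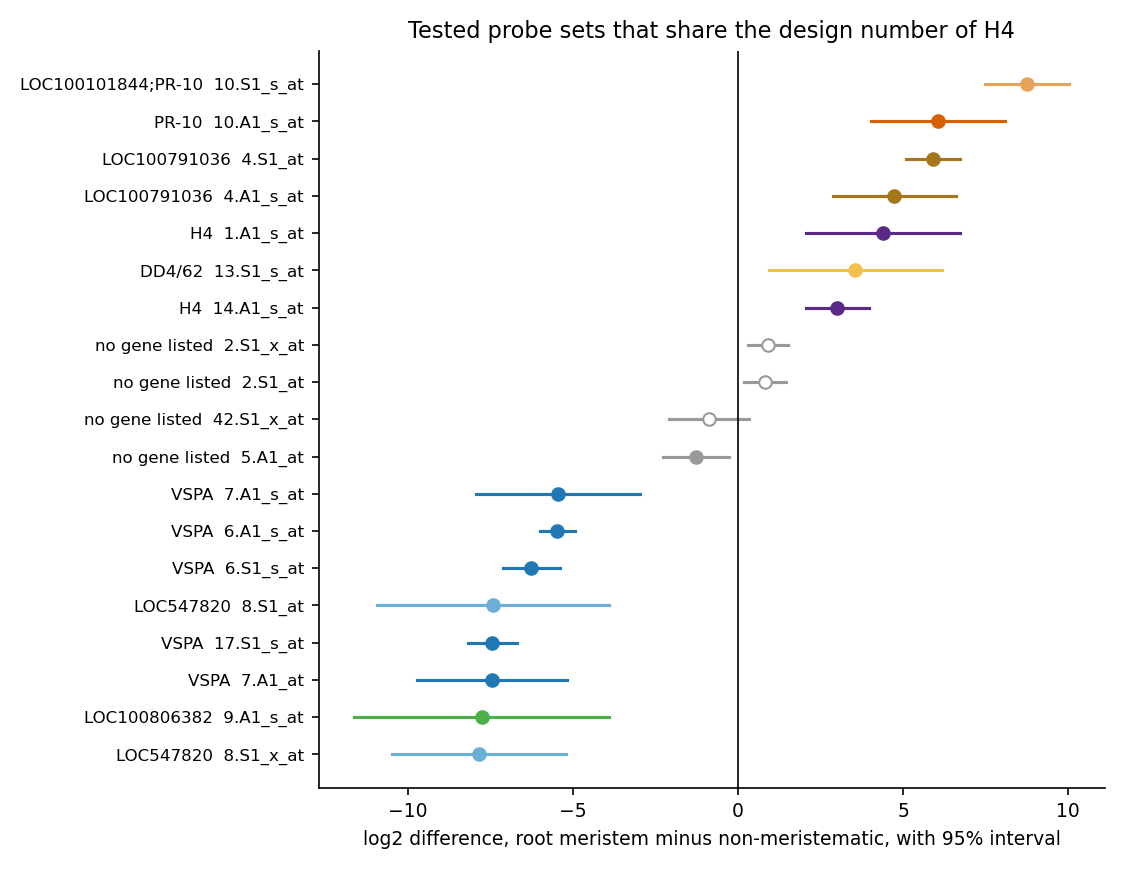
Log2 difference between root meristem and non-meristematic tissue (horizontal axis; point, with its 95% interval as a line) of the 19 tested probe sets numbered GmaAffx.89772 (vertical axis: listed gene and the rest of the probe set name); filled points passed the test. The H4 probe sets lie to the right of 0 with those of PR-10, DD4/62 and LOC100791036, of which all but the H4 one at 3.01 were below background in non-meristematic tissue. All VSPA and LOC547820 probe sets lie below -5. Those of LOC547820, and 7.A1_at and 7.A1_s_at of VSPA, were below background on every root meristem array and have no reliable place.

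The genes next to H4 and the PR-10 genes were chosen for description after their values had been seen. LOC100791036, which follows H4 in the genome, read 1001, 1127 and 563 in root meristem on its probe set GmaAffx.89772.4.S1_at, against 13.7 and 15 in non-meristematic tissue. It was at least 27.6-fold higher (adjusted p = 9.80e-05, limma), the "at least" being used where no array of the dim group was above its background and that background stands in for it. LOC100527097 read 979, 851 and 483 in root meristem, against 9.6 and 5.1, and was at least 23.7-fold higher (adjusted p = 0.000118). PR-10 read 1163, 1175 and 652 on its brightest probe set in root meristem, against 13.2 and 4.3, and was at least 30.9-fold higher (adjusted p = 0.000207). PR-10, DD4/62, LOC100101844, LOC100791036 and LOC100527097 are together called PR-10 genes here, the LOC genes by a shared design number and not by sequence. They have 9 probe sets listed singly, of which 7 were tested. All 7 were below background on both non-meristematic arrays and entered the test through root meristem alone, so their shared direction was fixed by the filter and is no result. On the other side of H4, LOC100306363 had 2 tested probe sets, of which 1 was higher (log2 1.33, adjusted p = 0.0339) and the other did not pass. H4 differed from these PR-10 genes in that its brighter probe set was above background on both non-meristematic arrays. The difference in fold between H4 and PR-10 was not tested.

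PCNA was higher in root meristem by a smaller amount. On its brightest probe set, Gma.431.1.S1_at, it read 1752, 1618 and 2304 on root meristem arrays 1, 2 and 3, against 1169 and 686 on non-meristematic arrays 1 and 2. The groups did not overlap, but the lowest root meristem value was only 1.38 times the highest non-meristematic one. The means were 1891 ± 363 (SD, n = 3) in root meristem and 927 ± 341 (SD, n = 2) in non-meristematic tissue, and the log2 difference was 1.06 ± 0.28 (SE, 95% interval 0.40 to 1.72; adjusted p = 0.0228, limma). The signal was thus high in both tissues: the probe set ranked at the 94.8 to 96.3 percentile of the root meristem arrays and at the 93.4 and 88.0 percentile of non-meristematic arrays 1 and 2. It was above background on all 5 arrays.

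The other 3 PCNA probe sets share the second part of the design number, Gma.431.2, and thus a source sequence. Gma.431.2.S1_a_at read 668, 867 and 1017 in root meristem, against 545 and 272 in non-meristematic tissue (log2 1.12 ± 0.34, adjusted p = 0.0385, limma). Gma.431.2.S1_at read 189, 306 and 349 in root meristem, against 141 and 57.7 (log2 1.59 ± 0.45, adjusted p = 0.0305). Gma.431.2.S1_x_at, marked as able to cross-hybridize, read 267, 390 and 484 in root meristem, against 160 and 69.7 (log2 1.81 ± 0.42, adjusted p = 0.0154). All 4 PCNA probe sets moved the same way, by 2.09-fold to 3.50-fold, and their 95% intervals overlapped. In a separate limma fit of gene means, the mean log2 signal over the 4 gave a difference of 1.40 ± 0.37. Its adjusted p of 0.0221 (limma) was adjusted over genes, not over probe sets.

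The PCNA calls rested on few arrays. Without root meristem array 1, 2 of 4 probe sets passed, and without non-meristematic array 1 all 4 did, with log2 differences of 1.45 to 2.41 (adjusted p = 0.00157 to 0.00300, limma). Without root meristem array 2, 0 of 4 probe sets passed (adjusted p = 0.0514 to 0.114, limma), although the log2 differences were 1.17, 1.10, 1.51 and 1.77. Without root meristem array 3 it was again 0 of 4 (adjusted p = 0.0524 to 0.117), with log2 differences of 0.91, 0.98, 1.41 and 1.61. In both lists the order is Gma.431.1.S1_at, then the _a_at, _at and _x_at probe sets of Gma.431.2. Without non-meristematic array 2, 1 of 4 passed, and the log2 differences of the others were 0.62 to 0.95. The direction was the same in each of these fits.

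H4 and PCNA did not follow each other across the arrays. Among the root meristem arrays, array 3 was lowest for both H4 probe sets and highest for all 4 PCNA probe sets. In non-meristematic tissue, array 1 was the lower one for the brighter H4 probe set and the higher one for all 4 PCNA probe sets; the dim H4 probe set was below background on both. The log2 ratio of the brightest H4 to the brightest PCNA probe set was 0.63, 0.53 and -0.86 on root meristem arrays 1, 2 and 3, against -2.70 and -1.003 on non-meristematic arrays 1 and 2. This ratio, taken from 1 probe set per gene, did not overlap between the groups, although root meristem array 3 and non-meristematic array 2 were close. A lack of overlap was common for single probe sets, at 34% of those tested with root meristem higher and 29.6% with root meristem lower. The 95% interval of the log2 difference of the brightest H4 probe set, 2.05 to 3.98, did not overlap that of the brightest PCNA probe set, 0.40 to 1.72. It did overlap those of Gma.431.2.S1_at (0.51 to 2.67) and Gma.431.2.S1_x_at (0.80 to 2.82). The difference between the genes was not tested.

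The lowest root meristem array of H4 was also that of the PR-10 genes, while the highest was array 1 or array 2 among the PR-10 probe sets. Array 3 was the lowest root meristem array in 7 of the 7 tested PR-10 probe sets, against 38.5% of all probe sets tested and 25.4% of those called higher. It was the highest in 31.3% of all probe sets tested and in 51.3% of those called higher. Lowest was thus the more common place of array 3 over all probe sets, and highest the more common one among those called higher. Probe sets of one gene share a target and are not independent. The PR-10 genes were also chosen after their values had been seen, and all 7 probe sets entered the test through root meristem alone. The count of 7 is thus a description. Non-meristematic array 1, the one with more PCNA signal, also had the larger leaf marker sum (48479, against 34166 on array 2) and the higher background (37, against 26.3); the part of these in the PCNA values was not tested.

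**Figure D4:**
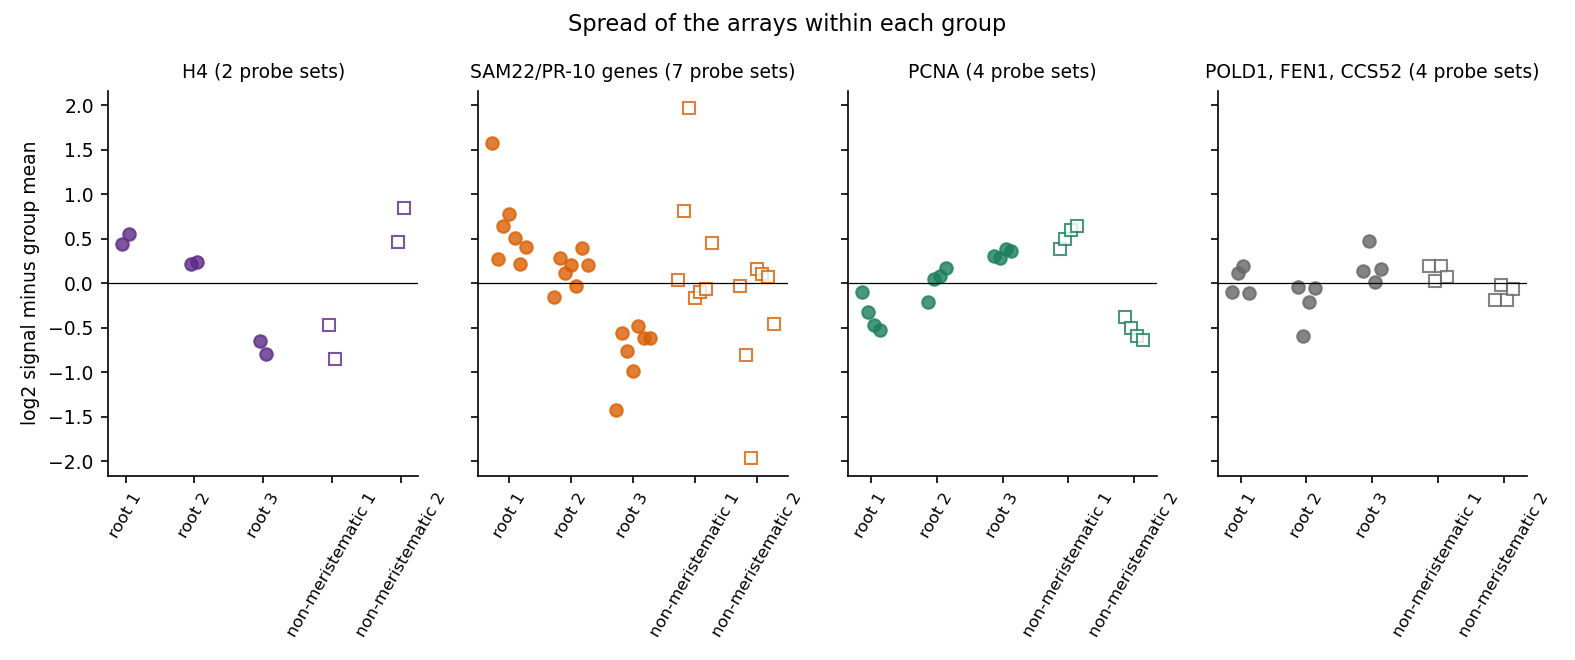
Log2 signal of each probe set minus its group mean (vertical axis) on each array (horizontal axis), with filled circles for root meristem and open squares for non-meristematic arrays, in panels for H4, the SAM22 and PR-10 genes, PCNA and 3 other genes of replication and division. Root meristem array 3 lies lowest for H4 and the PR-10 genes and highest for PCNA.

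Other genes of cell division and DNA replication were few among the listed symbols, and each gene is given by its brightest tested probe set. Of a list of 4 genes, 3 were higher in root meristem (H4, LOC548079 and POLD1) and none lower. The list was filled by symbol and so holds H4, which the files went against reading as a histone gene. Without H4, 2 of 3 genes were higher. The middle of the log2 differences was 1.12 over the 4 genes and 1.06 over the 3 without H4. Over all 5652 genes tested, 18.6% were called higher and 21% lower, with a median of 0.20. POLD1, the catalytic subunit of the DNA polymerase that PCNA holds on DNA, read 207, 216 and 245 in root meristem, against 113 and 86.6 in non-meristematic tissue (log2 1.17 ± 0.25, adjusted p = 0.0104, limma). CCS52, an activator of the anaphase-promoting complex, passed on neither of its probe sets: the brighter gave log2 0.78 ± 0.35 (adjusted p = 0.123), and the other pointed the opposite way (log2 -0.92 ± 0.28, adjusted p = 0.0362, under the minimum size). LOC100808044 (FEN1), the nuclease that trims the flaps of newly made DNA strands, was added after its values were seen. It read 706, 731 and 850 in root meristem, against 421 and 383 in non-meristematic tissue, and did not pass because its log2 difference of 0.92 ± 0.19 was under the minimum size (adjusted p = 0.0101). Without non-meristematic array 2, the median log2 difference of the 4 list genes was 0.87. On their brightest probe sets, H4 differed by 3.48 and PCNA by 0.68 in that fit.

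The genes whose pattern over the 5 arrays was nearest to each member were sought among 890 tested genes with a symbol other than a LOC number. Likeness was the root mean square difference of log2 signals after each gene was centred on its own mean, so that 0 means the same pattern. Nearest to H4 were the cytochrome P450 gene CYP82A3 (0.18), the alternative oxidase gene AOX1 (0.32), the seed maturation gene PM28 (0.33), HIDH, which encodes an isoflavone-forming dehydratase (0.36), and the transcription factor gene WRKY9 (0.36), against a median of 1.60 over all such genes. CYP82A3 read 233, 206 and 94.6 in root meristem, against 11.4 and 29.7 in non-meristematic tissue, and had the same lowest and highest root meristem arrays as H4. PCNA lay at 1.22 from H4 and POLD1 at 1.09. PR-10 stood at 2.11 from H4. Its non-meristematic values of 13.2 and 4.3 were below the backgrounds of 37 and 26.3, so this distance has no reliable size. Of the 5 nearest, AOX1 (21.7 and 25) and PM28 (6.7 and 11) were also below background on both non-meristematic arrays. CYP82A3 (11.4) and WRKY9 (29.5) were below it on non-meristematic array 1. The distances of these genes thus rest partly on values below background, and only HIDH was above it on both arrays.

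Nearest to PCNA were BES1-12 (0.098), the transcription factor genes MYB112 (0.16) and WRKY37 (0.17), the chaperone gene HSP90-1 (0.16) and POLD1 (0.17), against a median of 0.86. BES1-12 read 546, 540 and 632 in root meristem, against 373 and 222 in non-meristematic tissue. Only POLD1 of these is a gene of the replication list. FEN1 lay at 0.23 and CCS52 at 0.34. With 5 arrays in 2 groups, the distance counts both the size of the group difference and the spread within the groups.

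**Figure D5:**
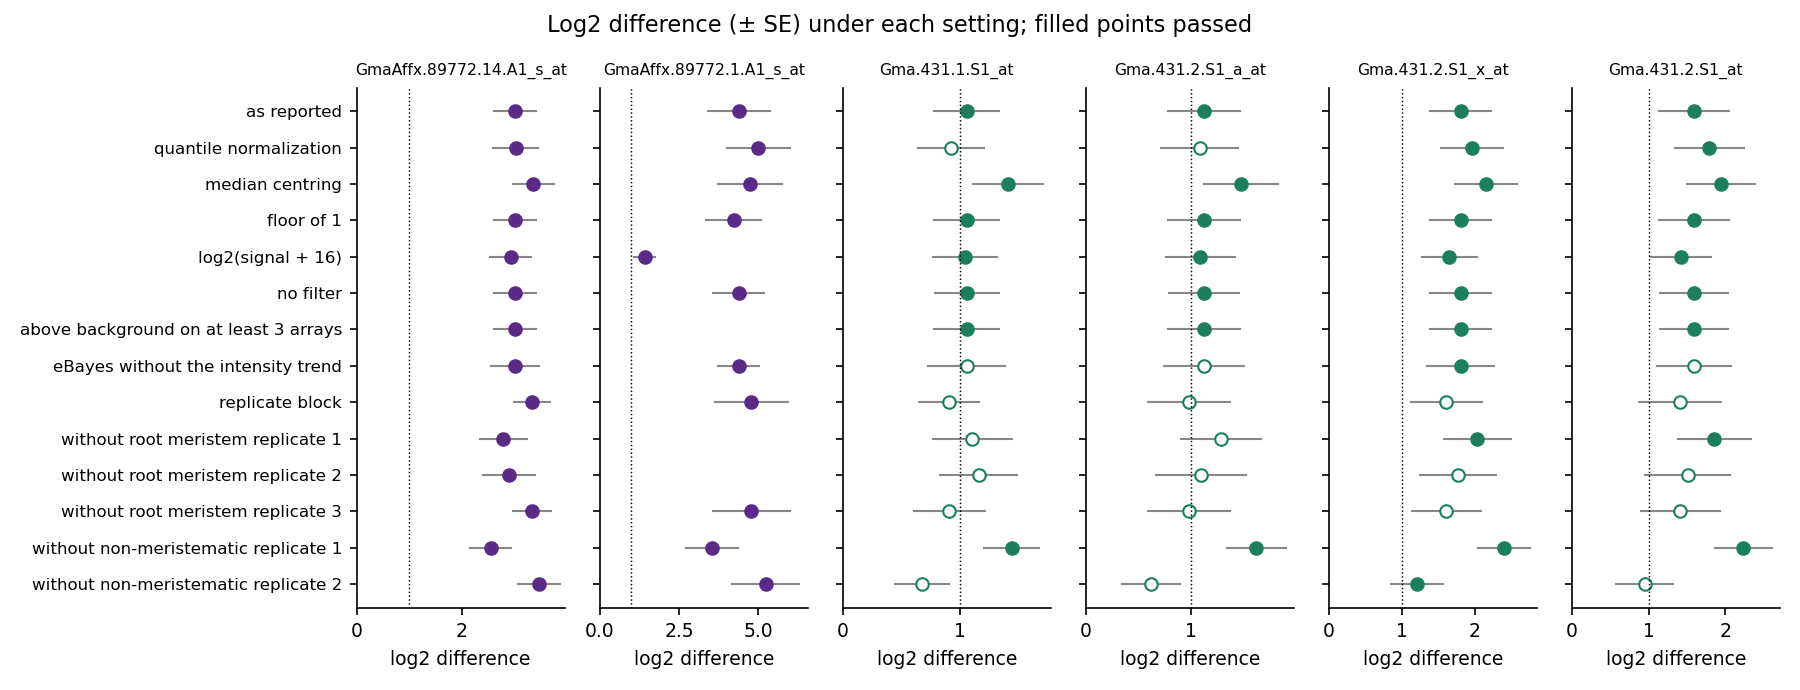
Log2 difference between root meristem and non-meristematic tissue (horizontal axis; point, with ± SE as a line) of each H4 and PCNA probe set under the reported and the 13 alternative settings (vertical axis); filled points passed the test, open points did not, and the dotted line marks a log2 difference of 1. All points of the 2 H4 probe sets are filled, while PCNA has open points at 3 to 7 settings; the dim H4 probe set has no point where too few arrays were above background.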

How the data were processed

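RNA of 5 samples had been hybridised to an Affymetrix soybean array, 1 array each. Each deposited value is a linear signal intensity per probe set, which the submitters' processing notes credit to MAS5. For its version and scaling target, the entry is: not given in the sources used here. Signals under 0.1 were set to 0.1 and log2 was taken. A probe set was tested when it was above the 25th percentile of the array on at least 2 arrays. Groups were compared with limma 3.58.1 in R 4.3.3 (lmFit, eBayes with intensity trend; 3 residual and 3.68 prior degrees of freedom), with Benjamini-Hochberg adjustment over all 30941 probe sets, and a call needed an adjusted p below 0.05 and a log2 difference of at least 1. The procedure was tested on simulated data. Arrays give no count of molecules, and their number limits the precision. Groups were taken from the titles, which call the samples biological replicates and say no more, so a p-value covers only the spread among these samples. No array was a copy of another: at most 0.45% of probe sets had equal values on any 2 arrays.

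Genes were named from the annotation of the platform, updated by Entrez number through a RefSeq gene table of Glycine_max_v4.0, used for names and gene order only. Of the 37593 probe sets, 8677 had 1 gene (8652 matched by Entrez number), 370 had several and 28546 were not listed. Named were all probe sets of the 2 genes, probe sets sharing their design numbers, the tested members of a cell division and replication list filled by symbol, and the 5 genes nearest in pattern. The members, lists and tests were chosen with earlier results of these data known, so the counts are descriptions. Replicate numbers 1 and 2 occur in both groups, but no label says that they mark a shared batch; a fit with them as a block was an alternative.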

Additional observations from a re-analysis of the deposited data

How the results depend on the processing

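The direction of the brighter H4 and the 4 PCNA probe sets was the same under every alternative in which they were tested. The dim H4 probe set also kept its direction, which is no result where the filter on background was used. The brighter H4 probe set passed under each of 13 (log2 2.55 to 3.48). The dim one passed under each of the 10 in which enough arrays were above background. It could not be tested without root meristem array 1, without array 2, or with 3 arrays required above background. In a further setting, without probe sets marked _x_at or _s_at, neither H4 probe set has a value. The probe sets Gma.431.1.S1_at, Gma.431.2.S1_a_at, Gma.431.2.S1_at and Gma.431.2.S1_x_at of PCNA had log2 differences of 0.68 to 1.45, 0.62 to 1.63, 0.95 to 2.24 and 1.21 to 2.41 when 1 array was left out. With the replicate block, none of them passed (0.91, 0.98, 1.41 and 1.61; adjusted p = 0.0517 to 0.124). The list count was 1 in that fit, and the gene that passed was H4. The block leaves root meristem array 3 without weight, since its number has no partner, and 1 residual degree of freedom. The first 2 also did not pass after quantile normalization (0.93 and 1.08), and the first 3 without the intensity trend (1.06, 1.12 and 1.59). The list count was 2 of 4 in each fit without 1 root meristem array, after quantile normalization and without the intensity trend. H4 was among those that passed in each of these fits, and PCNA was not. The count was 4 of 4 after median centring. The deviations of same-numbered arrays of the 2 groups had a correlation across probe sets of 0.099 for number 1 and -0.089 for number 2. Root meristem array 3, which has no partner, gave -0.168 and 0.168 with non-meristematic arrays 1 and 2. With 2 non-meristematic arrays the deviations mirror each other, so these values cannot say whether the numbers mark pairs. The split of calls was 4452 higher and 5608 lower as reported, 5719 and 4717 after quantile normalization, and 7668 and 4689 after median centring; over all probe sets, the median log2 difference was 0.072, 0.30 and 0.43 in these 3. Relative to that median, the brightest PCNA probe set differed by 0.99 as reported and by 0.63 after quantile normalization. The causes of these changes were not tested. Leaving H4 out of the list or adding FEN1, both chosen after seeing the data, gave counts of 2 and 3.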
